A study of Mus musculus with 2 samples.

Results

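Natural killer (NK) cells were examined in subcutaneous mouse tumours profiled by droplet single-cell RNA sequencing, and 345 of 34471 kept cells met the rule for them. The cells were selected on their own transcripts. A cell barcode was kept when it held 500 or more unique molecular identifiers (UMIs, each standing for 1 captured RNA molecule) and 300 or more genes, with mitochondrial genes taking no more than 20% of its UMIs. A kept cell was called NK when its UMIs of Ncr1, Klrb1c and Eomes summed to 2 or more, Cd3e and Cd8b1 were at 0, the complement genes C1qa, C1qb and C1qc summed to at most 1 and the tumour transcripts Hmga2 and Rhox5 summed to at most 3. The levels of these 10 genes in NK cells are therefore descriptions of the rule.

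There were 2 libraries, 1 for each diet. One library came from tumours of mice on a diet without serine and glycine (serine/glycine-free), the other from tumours of mice on a control diet. The sources used here do not give the strain, the tumour line, the age or the number of mice behind each library. The protocol text in the labels speaks of human heart tissue, whereas the organism and tissue fields give mouse and tumour, so no detail of dissociation is taken from it. With 1 library per diet there was no replicate and no test. Every interval below covers counting error within these 2 libraries only.

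NK cells are innate lymphocytes that kill stressed, infected or transformed cells without a rearranged antigen receptor. Activating receptors such as NKp46 (Ncr1) and NKG2D (Klrk1) signal through adaptors, inhibitory receptors of the Ly49 and NKG2A families read MHC class I on the target, and the balance decides whether granules with perforin and granzymes are released. Cytokines such as IL-15, IL-12 and IL-18 arm the cells, and NK cells in tissues can carry residency features such as CD49a (Itga1).

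In all, 173592046 UMIs from 20662 barcodes were counted on the serine/glycine-free diet and 173785388 UMIs from 14774 barcodes on the control diet, so that similar totals were spread over different numbers of cells. The rule found 191 NK cells with 540185 UMIs in the serine/glycine-free library and 154 NK cells with 720546 UMIs in the control library. Median depth per NK cell was 2053 UMIs and 1202 genes on the serine/glycine-free diet, against 4125.5 UMIs and 1913 genes on the control diet. This depth gap touches every share of cells defined by a UMI count below, and the shares within NK cells are given also after thinning each cell to 1000 UMIs. Thinning left 177 serine/glycine-free and 150 control NK cells. The libraries shared 87 barcodes, of which 3 and 2 were NK cells in the serine/glycine-free and control library, and without shared barcodes the NK share ratios given below differed by less than 0.01.

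Detection of Ncr1, Klrb1c and Eomes describes the rule, which asked for their UMIs. Ncr1 was detected in 92.7% of serine/glycine-free and 98.1% of control NK cells, Klrb1c (NK1.1) in 41.4% and 46.8%, and Eomes, a T-box factor of NK development, in 48.7% and 55.8%. Gzma (granzyme A), a marker that the rule did not use, was detected in 77.5% and 81.2%. Only 33 serine/glycine-free and 39 control cells carried all 3 rule genes, and 56 and 37 cells entered through Ncr1 alone.

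Cells at the edge of the rule resembled the members to different degrees. With a sum of exactly 2 UMIs, the lowest allowed, 54 serine/glycine-free and 25 control cells entered, and Nkg7, a granule protein of cytotoxic lymphocytes, was detected in 87.0% and 92.0% of them. With a sum of exactly 1, just outside, there were 78 and 33 cells, with Nkg7 in 53.8% and 60.6%. Their Gzma level was 3185 and 2629 CPM (counts per 1000000 UMIs), against 9548 and 5581 CPM in the cells with exactly 2. The T-cell gene Cd3g stood at 423 and 125 CPM just outside and at 209 and 48.5 CPM just inside.

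T-cell transcripts other than Cd3e and Cd8b1 were present among members, with a sum below that of CD8 T cells. Cd3g, a chain of the CD3 complex that the rule did not use, was detected in 13.1% of serine/glycine-free and 12.3% of control NK cells. Its level was 90.7 and 59.7 CPM, against 2050 and 1987 CPM in cells gated as CD8 T cells (at least 1 UMI of Cd3e and of Cd8b1, with the same limits on complement and tumour genes). Over a list of 12 T-cell genes, NK cells held 1603 and 1434 CPM, against 8909 and 7798 CPM in CD8 T cells. A UMI of this list was detected in 92.7% and 95.5% of NK cells. A part of the NK sum was Trdc, the constant segment of the T-cell receptor delta chain, detected in 41.9% of serine/glycine-free and 53.9% of control NK cells. Group 2 and 3 innate lymphoid cell genes were nearly absent, with Il13, Il5, Il22, Il17a and Il23r at 0 in both libraries.

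NK cells made up a smaller share of NK plus CD8 T cells, and of leukocytes, in the serine/glycine-free library than in the control library. Of cells gated as NK or CD8 T cells, 31.7% (95% interval 28.0 to 35.6, 191 of 602) were NK cells on the serine/glycine-free diet and 49.0% (43.4 to 54.7, 154 of 314) on the control diet, a ratio of 0.647 (0.550 to 0.761). CD8 T cells numbered 411 in the serine/glycine-free library and 160 in the control library. Of all gated leukocytes, NK cells were 4.93% (4.27 to 5.66) and 6.46% (5.51 to 7.53), a ratio of 0.763 (0.621 to 0.938). Of all kept cells they were 0.940% (0.812 to 1.08) and 1.09% (0.923 to 1.27), a ratio of 0.865 (0.69997 to 1.07), whose interval includes no difference. The interval was thus below 1 against CD8 T cells and against leukocytes, and not against all cells. The cells that NK cells were set against differed between the libraries too. Cells gated as B cells (at least 2 UMIs of Cd79a, Cd79b and Ms4a1 together) numbered 327 on the serine/glycine-free diet and 21 on the control diet. The part of B and CD8 T cell numbers in these ratios was not tested. Whether a cell reaches 2 UMIs of the rule genes depends on its depth. With a minimum of 1 or of 3 UMIs the ratio of shares of kept cells was 1.003 and 0.740, that of leukocytes 0.884 and 0.652, and that of NK plus CD8 T cells 0.734 and 0.560. With the minimum of 1 the leukocyte interval (0.739 to 1.06) included no difference, and with the minimum of 3 the interval for kept cells (0.583 to 0.941) lay below 1, so only the ratio to NK plus CD8 T cells was below 1 with its interval at all 3 minimums. The part of the depth gap in these ratios was not tested.

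The limit on tumour RNA moved the diet ratios of NK shares little. It alone excluded 52 of 243 serine/glycine-free and 31 of 185 control cells. Most members had no tumour UMI at all, 159 serine/glycine-free and 117 control cells, and only 4 and 3 members carried 2 or 3. Just outside the limit, 6 and 4 cells held 4 to 10 tumour UMIs. A further 46 and 27 cells held more than 10, and these were deep barcodes with medians of 14230 and 17253 UMIs. Their Ncr1 level was 191 and 158 CPM and their Gzma level 1790 and 530 CPM, against 1156 and 986 CPM of Ncr1 and 11395 and 6794 CPM of Gzma in members without tumour UMIs. The keratin gene Krt20, on the tumour list, stood at 221 and 85.9 CPM in those barcodes and at 2.48 and 0 CPM in members without tumour UMIs.

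With limits of 0, 1, 3 and 10 UMIs and with no limit, the ratio of NK shares of kept cells was 0.947, 0.863, 0.865, 0.869 and 0.916. The leukocyte and CD8 T gates carried the same limit, so these denominators changed with it. Leukocytes numbered 3125 and 1905 at a limit of 0 and 4933 and 2830 with no limit, on the serine/glycine-free and control diet. The ratio of NK shares of leukocytes was 0.828, 0.766, 0.763, 0.740 and 0.754. At a limit of 0 its interval (0.657 to 1.04) included no difference. The ratio of shares of NK plus CD8 T cells was 0.690, 0.649, 0.647, 0.638 and 0.651, below 1 with its interval at each limit. All 3 ratios therefore stayed below 1 at the 5 limits, and each moved by less than the width of its own interval.

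**Figure D1:**
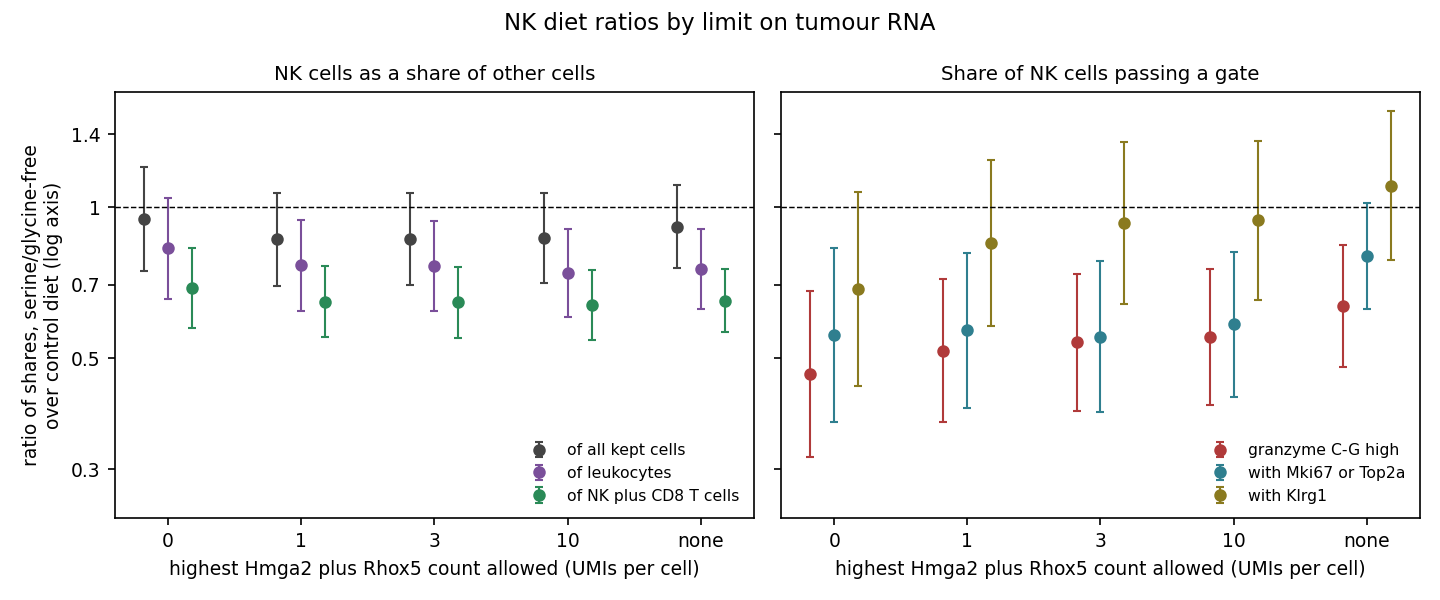
Ratio of shares, serine/glycine-free over control diet, on a log axis, for 5 limits on the summed Hmga2 and Rhox5 UMIs of a cell. Left, NK cells as a share of all kept cells, of leukocytes and of NK plus CD8 T cells; right, the share of NK cells high in granzymes C to G, with Mki67 or Top2a, or with Klrg1. Bars are 95% intervals for counting error. The 3 ratios on the left lie between 0.638 and 0.947 at every limit, and on the right the ratio for cells with Mki67 or Top2a is 0.552 at the limit of 3 and 0.800 with no limit.

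The limit mattered more for gene levels. Among 256 named genes, the diet ratio in NK cells took the other direction for 27 at a limit of 0, for 7 at a limit of 1, for 9 at a limit of 10 and for 79 with no limit. Phgdh, the first enzyme of serine synthesis, had a log2 ratio of -0.94 under the rule and 0.67 with no limit. For Gzma, the log2 ratios at limits of 0, 1, 3, 10 and none were 0.75, 0.83, 0.80, 0.79 and 0.53. For the cell-division list, the medians were -0.28, -0.08, -0.27, 0.02 and 0.29. The lists of cytokine receptors and of activating receptors had medians of 0.34 and 0.22 under the rule, against -0.11 for each with no limit. Gzma kept its direction at all 5 limits, whereas these 3 lists did not.

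Set beside CD8 T cells of the same library, NK cells carried the receptors and adaptors of innate killing. The rule used this contrast (it asks for NK genes and bars Cd3e and Cd8b1), so the levels are a description. Of 7061 genes with at least 50 UMIs in both cell types together, 176 (2.49%) were at least 2-fold higher in NK cells in both libraries and 325 (4.6%) at least 2-fold lower. Of 21 activating receptors and adaptors 7 were higher and 1 lower. Tyrobp (DAP12), the adaptor of activating Ly49 receptors, stood at 829 CPM in NK cells and 15.8 CPM in CD8 T cells on the serine/glycine-free diet, and at 892 and 30.7 CPM on the control diet. Fcer1g, the adaptor of the Fc receptor CD16 and of NKp46, stood at 478 and 48.4 CPM, and at 482 and 80.2 CPM. Cd244a (2B4), a receptor of the SLAM family, stood at 250 and 97.6 CPM, and at 232 and 92.2 CPM. Klrk1 (NKG2D) differed little, with 615 and 520 CPM, and 504 and 495 CPM.

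Of 8 inhibitory receptors 4 were higher in NK cells and none lower. Klra7, an Ly49 receptor for MHC class I, stood at 304 CPM in NK cells and 15.8 CPM in CD8 T cells on the serine/glycine-free diet, and at 215 and 11.9 CPM on the control diet. Klrg1, which binds cadherins, stood at 196 and 1.76 CPM, and at 119 and 1.71 CPM. Of 12 checkpoint receptors none was higher and 8 were lower. Pdcd1 (PD-1) had 4 UMIs in all serine/glycine-free and 2 UMIs in all control NK cells, 7.40 and 2.78 CPM, against 532 and 515 CPM in CD8 T cells. Lag3 stood at 27.8 and 190 CPM, and at 37.5 and 184 CPM, and Havcr2 (TIM-3) at 85.2 and 350 CPM, and at 74.9 and 232 CPM. Tox, a factor of exhausted T cells that also serves NK development, stood at 185 and 1159 CPM, and at 124 and 988 CPM. Pdcd1 transcripts were thus nearly absent from NK cells in both libraries.

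Effector genes split the 2 cell types unevenly. Gzma stood at 11529 CPM in NK cells and 86.2 CPM in CD8 T cells on the serine/glycine-free diet, and at 6612 and 32.4 CPM on the control diet, a log2 difference of 7.06 and 7.67. Gzmb, the granzyme that triggers apoptosis through caspases, differed less, with 2806 and 1257 CPM, and 2877 and 877 CPM. Prf1 (perforin), the pore-forming protein, was close to even, with 1562 and 1197 CPM, and 1642 and 1302 CPM. Spp1 (osteopontin), a secreted glycoprotein, stood at 5711 and 1642 CPM, and at 6462 and 2098 CPM. Xcl1, a chemokine for cross-presenting dendritic cells, stood at 172 and 19.3 CPM, and at 165 and 64.9 CPM. Of 22 genes of granzymes, perforin and granule release 7 were at least 2-fold higher in NK cells in both libraries, Gzma to Gzmg. The lower ones were Gzmk and Tnfsf10, 2 of the 22. Gzmc stood at 3702 and 108 CPM, and at 6700 and 213 CPM. Of 11 secreted cytokines and chemokines 2 were higher (Spp1 and Xcl1) and 2 lower (Csf1 and Ccl3). Prf1 passed 2-fold in neither direction.

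Homing and residency genes of NK cells were mixed. Itga1 (CD49a), a collagen receptor of tissue-resident cells, stood at 268 CPM in NK cells and 24.6 CPM in CD8 T cells on the serine/glycine-free diet, and at 204 and 49.5 CPM on the control diet. Itga2 (CD49b), an integrin of conventional NK cells, stood at 53.7 and 3.52 CPM, and at 51.4 and 3.41 CPM. Both integrins were thus higher in NK cells. Ccr2, a chemokine receptor for inflamed tissue, stood at 622 and 41.3 CPM, and at 489 and 44.4 CPM. Cxcr6, a residency-associated chemokine receptor, was lower, with 46.3 and 531 CPM, and 2.78 and 389 CPM. Of 22 genes of maturation, homing and residency 6 were higher and 4 lower.

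**Figure D2:**
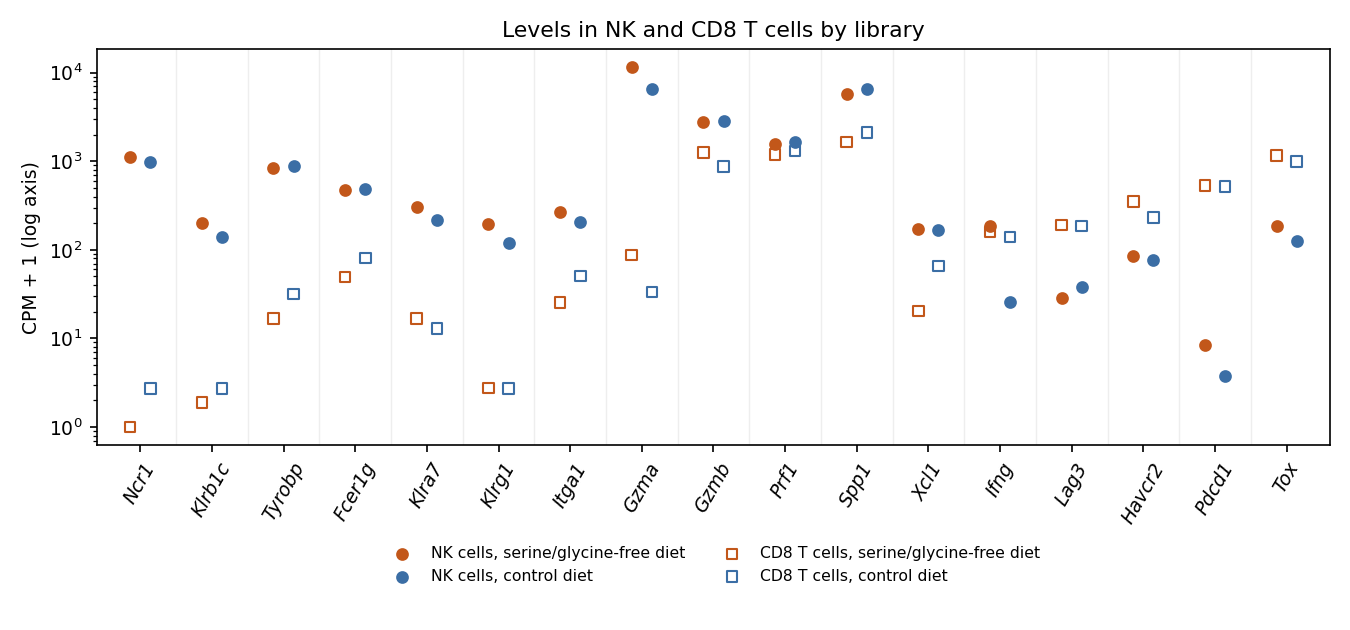
Levels of 17 genes as CPM plus 1 on a log axis, summed over NK cells (filled circles) and CD8 T cells (open squares) of the serine/glycine-free and the control library. Ncr1 and Klrb1c belong to the rule. Gzma is at 11529 and 6612 CPM in NK cells and at 86.2 and 32.4 CPM in CD8 T cells, while Pdcd1 is at 7.40 and 2.78 CPM in NK cells and at 532 and 515 CPM in CD8 T cells.

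A few NK cells held most of the transcripts of granzymes C to G. Gzmc, Gzmd, Gzme, Gzmf and Gzmg encode granule serine proteases that lie with Gzmb in 1 cluster on chromosome 14 of the mouse. Their summed UMIs were 2.30% of all NK UMIs on the serine/glycine-free diet and 2.48% on the control diet. A single cell held 32.0% of them in the serine/glycine-free library and 24.8% in the control library, and the top 5 cells held 75.5% and 57.8%. The largest sum in a cell was 3972 and 4444 UMIs, whereas 116 serine/glycine-free cells (60.7%) and 68 control cells (44.2%) had none.

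The promoters of these granzymes are shown because the genes were found together in the same cells. The sequences run over the 250 bases before the RefSeq start (GRCm38.p6, minus strand), 5′ to 3′, and capitals mark TGTGGT, the core that Runx factors bind, on either strand (ACCACA where it lies on the other strand). 3 genes of the C to G set are followed by Gzmb.
Gzmc, chr14:56234658-56234907: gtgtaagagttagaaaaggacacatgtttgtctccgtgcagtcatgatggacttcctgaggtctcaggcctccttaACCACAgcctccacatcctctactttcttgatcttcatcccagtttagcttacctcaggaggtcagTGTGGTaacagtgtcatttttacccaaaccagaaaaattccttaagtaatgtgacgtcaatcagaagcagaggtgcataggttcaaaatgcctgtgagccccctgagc
Gzmd, chr14:56132594-56132843: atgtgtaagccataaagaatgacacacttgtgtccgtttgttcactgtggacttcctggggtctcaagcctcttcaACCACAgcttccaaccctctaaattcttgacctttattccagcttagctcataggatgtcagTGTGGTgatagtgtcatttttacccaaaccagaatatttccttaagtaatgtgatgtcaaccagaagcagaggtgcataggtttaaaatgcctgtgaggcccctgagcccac
Gzmf, chr14:56211408-56211657: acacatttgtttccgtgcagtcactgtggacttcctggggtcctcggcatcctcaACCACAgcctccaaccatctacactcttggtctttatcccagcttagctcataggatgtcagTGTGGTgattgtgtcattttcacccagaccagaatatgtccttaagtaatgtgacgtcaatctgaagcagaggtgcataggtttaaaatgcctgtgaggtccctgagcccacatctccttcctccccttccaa
Gzmb, chr14:56262335-56262584: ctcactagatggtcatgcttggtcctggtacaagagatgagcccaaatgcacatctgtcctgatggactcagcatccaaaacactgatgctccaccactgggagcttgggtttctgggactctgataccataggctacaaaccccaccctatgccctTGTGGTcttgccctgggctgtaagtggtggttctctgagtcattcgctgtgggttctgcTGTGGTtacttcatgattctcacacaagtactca

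All 6 granzyme promoters of the cluster held TGTGGT, each at 2 places, against 4614 of 32851 promoter windows (14%) of the same length. In Gzmc the matches began 174 and 108 bases before the start, in Gzmd 174 and 112, in Gzmf 195 and 133, and in Gzmb 93 and 34. The AP-1 motif TGANTCA was found in 1 of 6, the one of Gzmb, against 6.75% of windows. The T-box motif GGTGTGA was found in 0 of 6 (3.33% of windows) and the STAT motif TTCNNNGAA in 0 of 6 (7.02%). Both strands were searched, and no match of a motif overlapped that of another in these 6 windows. The windows of Gzmc to Gzmg were 71.5% to 94.8% identical to each other in 10 pairs and 47.3% to 52.2% identical to Gzmb in 5 pairs, so the shared motif is not an independent match in each gene. The last 300 bases of the transcripts, from which 3′ libraries are read, were 82.4% to 88.2% identical among Gzmd, Gzme, Gzmf and Gzmg, so the counting may have split reads between these 4 genes and their single values are uncertain. The end of Gzmc was 48.7% to 53.7% identical to those 4, and that of Gzmb 46.1% to 50% identical to the other 5.

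**Figure D3:**
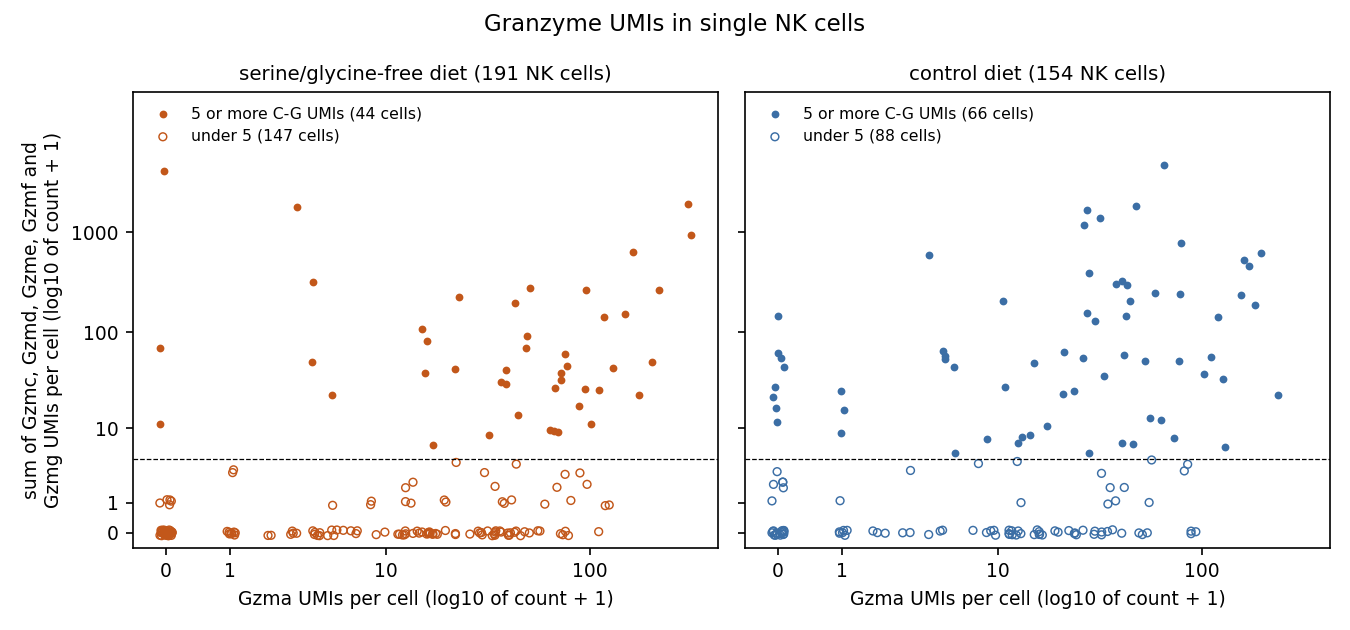
Each point is 1 NK cell, with its Gzma UMIs on the horizontal axis and its summed Gzmc to Gzmg UMIs on the vertical axis, both as log10 of count plus 1, with a small random shift to separate points. The left panel shows the 191 cells of the serine/glycine-free library and the right panel the 154 cells of the control library. Filled points above the dashed line have 5 or more C to G UMIs, 44 and 66 cells, and the highest cells reach 3972 and 4444 UMIs.

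NK cells were set apart as granzyme C to G high when they held at least 5 of these UMIs. This is a range cut from a per-cell count, not a cell type, and 31 serine/glycine-free and 20 control cells lay below the cut with 1 to 4 UMIs. The cut took in 44 of 191 NK cells (23.0%, 17.3 to 29.7) on the serine/glycine-free diet and 66 of 154 (42.9%, 34.9 to 51.1) on the control diet, a ratio of 0.538 (0.392 to 0.738). After thinning, the shares were 20.3% and 31.3%, a ratio of 0.649 (0.446 to 0.945). At tumour limits of 0, 1, 10 and none the ratio was 0.466, 0.517, 0.551 and 0.636. Granzyme C to G high cells were therefore fewer among NK cells of the serine/glycine-free library at every limit and after thinning.

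The cut was hardly reached outside lymphocytes. Of gated macrophages, 0 of 1194 on the serine/glycine-free diet and 1 of 936 on the control diet reached 5 UMIs, and of gated tumour cells 1 of 10424 and 2 of 9646. Among CD8 T cells the cut took in 13.9% of 411 cells and 17.5% of 160. Median depth of the macrophages was 3589 and 5100.5 UMIs. Of the NK cells with any C to G transcript, 14 serine/glycine-free and 15 control cells carried all 5 genes, and 26 and 31 carried only 1.

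Granzyme C to G high cells shared a wider profile in both libraries. They were deeper than the other NK cells, with medians of 4396 and 1800 UMIs on the serine/glycine-free diet and of 5927 and 2924.5 UMIs on the control diet, so levels are given in CPM. Of 4192 genes with at least 50 UMIs in NK cells, without the 5 of the cut, 112 (2.67%) were at least 1.5-fold higher in the high cells in both libraries and 451 (10.8%) at least 1.5-fold lower. The median log2 ratio of all genes was -0.20 and -0.17.

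Spp1 was the most abundant of the 112 higher genes in both libraries. It stood at 11056 CPM in high cells and 1723 CPM in other NK cells on the serine/glycine-free diet, and at 9798 and 1594 CPM on the control diet, log2 ratios of 2.68 (2.55 to 2.82) and 2.62 (2.48 to 2.76). A single cell held 529 of its 3085 UMIs on the serine/glycine-free diet and 499 of 4656 on the control diet, so the values did not rest on 1 cell. Myo10, a motor protein of filopodia, stood at 446 and 29.1 CPM, and at 344 and 23.9 CPM. Fcrl6, an Fc receptor-like protein, stood at 602 and 54.9 CPM, and at 311 and 23.9 CPM. All 3 genes were thus several-fold higher in the high cells of both libraries. Ctsg (cathepsin G), a granule protease best known from neutrophils, had 98 and 95 UMIs in the high cells and 0 in the others, but 80 and 84 of them came from 1 cell in each library, and it was detected in only 1.05% and 1.95% of NK cells. Neutrophil markers were near 0 in NK cells, with 11.1 and 20.8 CPM over 6 genes.

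Receptors of late or resident NK cells were higher in the high cells. Klrg1 stood at 342 CPM in high and 87.3 CPM in other cells on the serine/glycine-free diet, and at 175 and 37.5 CPM on the control diet. Itga1 stood at 394 and 175 CPM, and at 281 and 92.2 CPM. Tnfrsf9 (4-1BB), a costimulatory receptor of activated lymphocytes, stood at 1144 and 446 CPM, and at 1081 and 481 CPM. Havcr2 stood at 156 and 32.3 CPM, and at 124 and 3.41 CPM. Prf1 went the same way, with 2409 and 931 CPM, and 2018 and 1092 CPM. Of 7 checkpoint receptors 3 were higher and 1 lower, and of 14 granule genes without the C to G set 1 was higher (Prf1) and 1 lower (Fasl, the ligand of the death receptor Fas).

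Many receptors and factors of cytokine-responsive NK cells were lower in the high cells. Of 16 cytokine receptor and signalling genes 10 were lower and 1 higher, of 21 transcription factors 9 lower and 1 higher, and of 19 activating receptors 7 lower and 1 higher, beside the 10.8% lower and 2.67% higher among all genes. Il18r1, a chain of the IL-18 receptor, stood at 39.0 CPM in high and 388 CPM in other cells on the serine/glycine-free diet, and at 98.2 and 396 CPM on the control diet. Stat4, the factor of IL-12 signalling, stood at 251 and 598 CPM, and at 164 and 461 CPM. Both thus stood lower with the cut in each library. Cd226 (DNAM-1), an activating receptor for nectins, stood at 43.3 and 398 CPM, and at 28.1 and 246 CPM. Klrk1 stood at 282 and 863 CPM, and at 320 and 771 CPM. The chemokines Ccl5 and Xcl1, which draw lymphocytes and dendritic cells, were lower as well, Ccl5 with 25.99 and 708 CPM, and 46.8 and 659 CPM, and Xcl1 with 52.0 and 262 CPM, and 60.8 and 317 CPM.

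Tcf7 and Itga2 were also low in the high cells. Tcf7, a factor of stem-like lymphocytes, stood at 8.66 CPM in high and 123 CPM in other cells on the serine/glycine-free diet, and at 28.1 and 78.5 CPM on the control diet. Itga2 stood at 4.33 and 90.5 CPM, and at 14.03 and 106 CPM. Itga1 and Itga2, the collagen receptors of resident and conventional NK cells, thus went opposite ways with the cut. Of 13 genes of serine, glycine and one-carbon metabolism none passed 1.5-fold in both libraries in either direction, and of 20 cell-division genes 2 were lower (Stmn1, a tubulin regulator, and Mcm2, a part of the replicative helicase). Cells with Mki67 or Top2a were 31.8% of high and 17.0% of other cells on the serine/glycine-free diet, and 45.5% and 30.7% on the control diet, at the unequal depths given above.

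**Figure D4:**
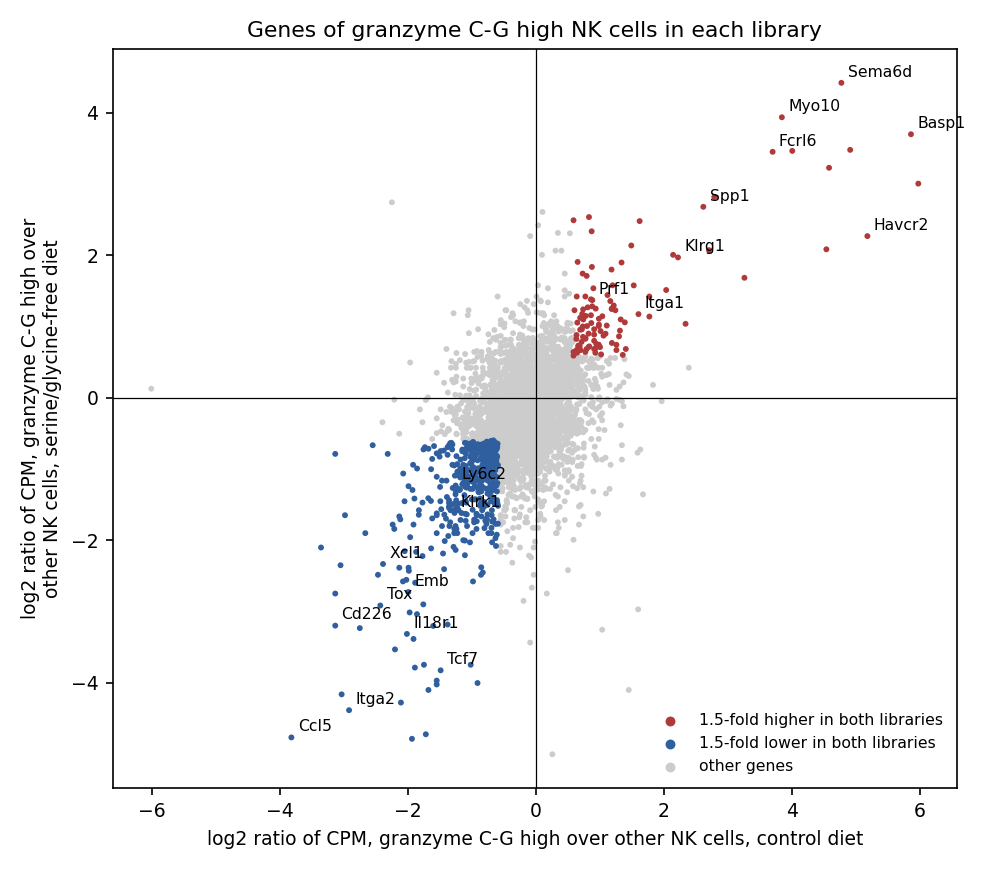
Log2 ratio of CPM, granzyme C to G high over other NK cells, for each gene with at least 50 UMIs, in the serine/glycine-free library (vertical axis) and in the control library (horizontal axis). The 5 genes of the cut and genes at 0 in a subset, such as Ctsg, are left out. Spp1 lies at 2.68 and 2.62, Ccl5 at -4.77 and -3.82, and more genes lie in the lower left (451 called lower) than in the upper right (112 called higher).

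Between diets, Gzma and Gzmc pointed in opposite directions in NK cells. Gzma stood at 11529 CPM on the serine/glycine-free diet and 6612 CPM on the control diet, a log2 ratio of 0.80 (0.75 to 0.86). Gzmc stood at 3702 CPM and 6700 CPM, a log2 ratio of -0.86 (-0.93 to -0.78). Both genes kept these directions without the cell with most UMIs of the gene, at 0.80 and -0.99. Gzma also differed within each subset, with 14401 and 7393 CPM in granzyme C to G high cells, 0.96 (0.89 to 1.03), and 9387 and 5471 CPM in the other cells, 0.78 (0.69 to 0.87). Within high cells Gzmc stood at 8561 and 11206 CPM, -0.39 (-0.46 to -0.31), against -0.86 over all NK cells.

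The other effectors differed less between diets. Gzmb stood at 2806 CPM on the serine/glycine-free diet and 2877 CPM on the control diet, a log2 ratio of -0.04 (-0.13 to 0.06). Prf1 stood at 1562 and 1642 CPM, -0.07 (-0.20 to 0.06). Gzmd, Gzme, Gzmf and Gzmg had log2 ratios of -0.08, -0.25, 0.30 and 0.11, but 1 cell held 15.6% to 42.9% of the UMIs of each of these genes in either library. These 4 ratios therefore rest on a few cells, and Gzmg took the other direction (-0.90) when each cell weighed the same. In CD8 T cells the Gzma log2 ratio was 1.41, at the low levels given above.

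Over all genes the ratios of NK cells leaned toward the serine/glycine-free diet. Of 4197 genes with at least 50 UMIs, 437 (10.4%) were at least 1.5-fold higher on the serine/glycine-free diet and 201 (4.79%) at least 1.5-fold lower, so 68.5% of such genes were higher. This split depended on scaling. Without mitochondrial and ribosomal-protein genes in the totals it was 315 higher and 286 lower (52.4%), and with median-ratio scaling 299 and 307 (49.3%). Counting differences of any size, 2456 of the 4197 genes (58.5%) were higher. The median log2 ratio of all genes was 0.08, and list counts and medians are read beside these values. The medians of the receptor, cytokine signalling, maturation, serine, oxidative phosphorylation, glycolysis, ATF4 and cell-division lists given below kept their direction under both scalings. After thinning each cell to 1000 UMIs, 53 of 256 named genes took the other direction between diets.

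Genes of maturation, homing and residency leaned to the higher side. Of 16 measured genes 13 were higher on the serine/glycine-free diet (81.3%, beside 58.5% of all genes), 7 of them by at least 1.5-fold and 1 lower by as much, with a median log2 ratio of 0.43. Ly6c2, a surface protein of mature NK cells, stood at 261 and 98.5 CPM, 1.41 (0.98 to 1.84), and was detected in 31.9% and 18.8% of cells. Cd7, a lymphocyte surface protein, stood at 131 and 47.2 CPM, 1.48 (0.87 to 2.11). Both were detected in a larger share of the shallower serine/glycine-free cells, and Ly6c2 pointed the same way within high cells (1.22) and other cells (1.20), whereas in CD8 T cells it stood at -1.06. Cd69, an early activation and retention marker, was lower with 61.1 and 107 CPM, -0.81 (-1.44 to -0.20). In CD8 T cells the median of the same list was -0.31. Within granzyme C to G high NK cells 10 of the 16 genes were higher on the serine/glycine-free diet, with a median of 0.21, beside 51.0% of all genes. Within the other NK cells 12 were higher, with a median of 0.45, beside 54.6% of all genes.

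Receptors and cytokine signalling leaned the same way. Of 16 cytokine receptor and signalling genes 15 were higher on the serine/glycine-free diet, with a median of 0.34, and 4 passed 1.5-fold, a share above the 10.4% of all genes. Jak1, a kinase shared by many cytokine receptors, stood at 809 and 548 CPM, 0.56 (0.36 to 0.76). Stat4 stood at 450 and 285 CPM, 0.66 (0.39 to 0.94). Of 19 activating receptors 14 were higher (73.7%, beside 58.5% of all genes), 5 by at least 1.5-fold and none lower by as much, with a median of 0.22. Cd226 stood at 246 and 117 CPM, 1.08 (0.67 to 1.49), and Klrd1 (CD94), the partner of the NKG2 receptors, at 937 and 606 CPM, 0.63 (0.44 to 0.82). Of 8 inhibitory receptors 6 were higher (75%), 3 by at least 1.5-fold and 1 lower by as much, among them Klrg1 with 196 and 119 CPM, 0.72 (0.29 to 1.14). The lower one was Lilrb4a, an inhibitory immunoglobulin-like receptor, with 61.1 and 108 CPM, -0.83 (-1.46 to -0.22). The share of granzyme C to G high cells, in which Cd226 and Stat4 were low and Klrg1 high, differed between the libraries as given above. Within high and within other cells the log2 ratio was 0.63 and 0.69 for Cd226, 0.62 and 0.38 for Stat4, and 0.96 and 1.22 for Klrg1, so each pointed the same way in both subsets. The interval for Cd226 within high cells, from 10 and 12 UMIs, was -0.74 to 1.963 and included 0. The lean of the cytokine list was not the same in both subsets. Within high cells 8 of the 16 genes were higher and 8 lower, with a median of -0.01, and Il18r1 stood at -1.33 (-2.56 to -0.27), whereas within other cells 13 were higher and 3 lower, with a median of 0.28. Of the 19 activating receptors 11 were higher within high cells and 10 within the others, and of the 8 inhibitory receptors 4 in each. Over all genes 2141 of 4197 were higher within high cells and 2291 within the others.

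Genes of serine and one-carbon metabolism were mostly lower in NK cells on the serine/glycine-free diet. Of 13 measured genes 11 were lower, 4 by at least 1.5-fold and none higher by as much, with a median log2 ratio of -0.34 beside 0.08 for all genes. Phgdh stood at 42.6 and 81.9 CPM, -0.94 (-1.71 to -0.23), from 23 and 59 UMIs. Slc1a5, a transporter of neutral amino acids, stood at 42.6 and 79.1 CPM, -0.89 (-1.66 to -0.17), and Mthfd1l, a mitochondrial folate enzyme, at 68.5 and 111 CPM, -0.70 (-1.30 to -0.12). Tyms, which makes thymidylate for DNA, stood at 38.9 and 77.7 CPM, -0.999 (-1.80 to -0.25). Psat1 and Psph, the next enzymes of serine synthesis, had log2 ratios of -0.01 and 0.34 with intervals that included 0. The enzymes of serine synthesis were thus not uniformly lower. In CD8 T cells the list median was 0.12. The NK median was -0.43 at a tumour limit of 0 and -0.21 with no limit, where Phgdh turned to 0.67.

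Oxidative phosphorylation genes were lower as well. Of 17 nuclear genes 13 were lower on the serine/glycine-free diet, 5 by at least 1.5-fold and 1 higher by as much, with a median of -0.40 in NK cells and 0.10 in CD8 T cells. Cox4i1, a subunit of cytochrome c oxidase, stood at 628 and 866 CPM, -0.46 (-0.66 to -0.27). Cycs (cytochrome c) stood at 124 and 211 CPM, -0.77 (-1.20 to -0.34), and at -0.81 within granzyme C to G high cells and -0.84 within the others. Glycolysis genes centred near 0, with a median of -0.10 over 13 genes, 5 higher and 8 lower. Targets of the amino-acid stress factor ATF4 had a median of -0.20, with 2 higher and 6 lower of 8 measured.

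Cell division was lower by some measures. Of 20 genes 12 were lower on the serine/glycine-free diet, 4 by at least 1.5-fold and none higher by as much, with a median of -0.27, a value that was 0.02 at a tumour limit of 10. Top2a, an enzyme of chromosome untangling, stood at 183 and 283 CPM, -0.63 (-0.99 to -0.27), whereas the proliferation marker Mki67 stood at 217 and 153 CPM, 0.50 (0.12 to 0.89). Cells with a UMI of either were 20.4% (39 of 191) and 37.0% (57 of 154), a ratio of 0.552 (0.390 to 0.781). After thinning they were 14.7% and 16.7%, a ratio of 0.881 (0.532 to 1.46), whose interval included no difference. The unthinned difference was therefore not detectable at equal depth. Among macrophages 28.6% and 32.4% of cells had such a UMI.

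Surface markers of NK maturation, counted as cells with a UMI, did not separate the diets. Itga1 was detected in 33.0% of serine/glycine-free and 37.0% of control cells, a ratio of 0.891 (0.668 to 1.19), against 5.11% and 11.3% of CD8 T cells. After thinning Itga1 was detected in 15.8% and 11.3%, 1.396 (0.796 to 2.45), the other direction. Klrg1 was detected in 23.6% and 25.3%, 0.9303 (0.641 to 1.35), and after thinning in 13.6% and 7.33%, 1.85 (0.937 to 3.65). Cd27, a marker of less mature NK cells, was detected in 16.2% of cells in both libraries, and after thinning in 8.47% and 5.33%, 1.59 (0.693 to 3.64). Itgam (CD11b), a marker of mature NK cells, was detected in 8 and 4 cells, 4.19% and 2.60%, 1.61 (0.495 to 5.25), and after thinning in 1.69% and 1.33%, 1.27 (0.215 to 7.51), against 73.9% and 85.9% of macrophages unthinned. All intervals included no difference. For comparison, Klrg1 was detected in 0.487% and 0.625% of CD8 T cells.

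**Figure D5:**
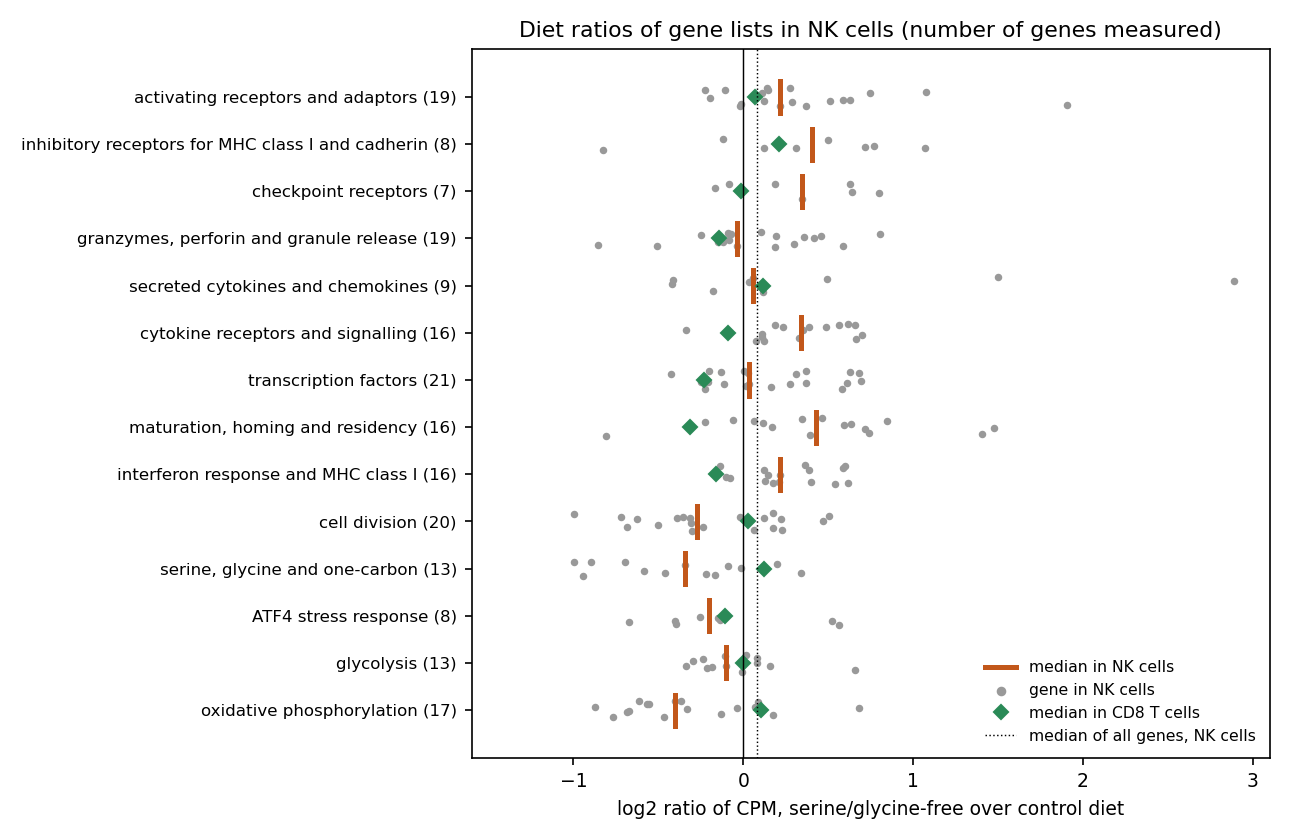
Log2 ratio of CPM in NK cells, serine/glycine-free over control diet, for 14 gene lists. Grey points are genes with at least 50 UMIs, bars the list median in NK cells, diamonds the list median in CD8 T cells and the dotted line the median of all genes in NK cells (0.08). The bars lie at 0.43 for maturation, homing and residency, at -0.34 for serine, glycine and one-carbon genes and at -0.40 for oxidative phosphorylation.

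Ranked over all genes by the interval bound nearest to no difference, the 12 highest and 12 lowest were of unlike kinds. On the higher side, 4 were MHC class II genes or their chaperone, and another was Il1b, an inflammatory cytokine detected in 2.09% of serine/glycine-free NK cells with 22 of its 47 UMIs in 1 cell. Cd74 stood at 337 CPM on the serine/glycine-free diet and 18.04 CPM on the control diet, but 71 of its 182 UMIs came from 1 cell. Over a list of 9 dendritic-cell genes, NK cells held 844 and 62.5 CPM, and 380 of the 456 serine/glycine-free UMIs came from 3 cells. Without the cell with most UMIs of each gene, Cd74 was at a log2 ratio of 3.75, from 111 and 11 UMIs. This step removed 1 cell per library and not all 3 cells with most dendritic-cell UMIs, so it cannot show a spread over many cells. The part of dendritic-cell RNA in these values was not tested. Ifng, the cytokine of NK effector function, stood at 185 and 24.98 CPM, 2.89 (2.16 to 3.70), with 78 of 100 UMIs in 1 cell. Without the top cell of each library it had 22 and 15 UMIs and a log2 ratio of 0.97.

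Txnip, Rab27b, Ly6c2 and Cd7 were spread over more cells. Txnip, which restrains glucose uptake, stood at 396 and 147 CPM, 1.43 (1.09 to 1.78), and was detected in 59.2% of serine/glycine-free and 43.5% of control cells. Rab27b, a small GTPase of granule docking, stood at 274 and 108 CPM, 1.34 (0.93 to 1.75), and was at or below 1 CPM in CD8 T cells. Crtam, an activating adhesion receptor, stood at 83.3 and 22.2 CPM, but 22 of its 45 UMIs came from 1 cell. Of the 12 higher genes 6 were also higher on the serine/glycine-free diet in CD8 T cells, beside 2186 of all 4057 genes measured there.

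On the lower side stood Gzmc and genes of several kinds. Alad, an enzyme of haem synthesis, stood at 59.2 CPM on the serine/glycine-free diet and 144 CPM on the control diet, -1.28 (-1.90 to -0.70). Eif5a, a translation factor, stood at 783 and 1170 CPM, -0.58 (-0.75 to -0.41), and Ndufa13 and Ndufb7, subunits of respiratory complex I, at 68.5 and 132 CPM and at 83.3 and 153 CPM. Dscam, an adhesion molecule best known from neurons, stood at 202 and 340 CPM in NK cells. In CD8 T cells it stood at 104 and 321 CPM, a log2 ratio between diets of -1.63, and in macrophages at or below 1 CPM. AY036118 stood at 172 and 429 CPM, -1.32 (-1.67 to -0.98), and at -1.42 in CD8 T cells. It was also lower in macrophages, with 258 and 725 CPM, and in tumour cells, with 57.6 and 150 CPM. All 12 lower genes were also lower on the serine/glycine-free diet in CD8 T cells, where 2186 of all 4057 genes measured were higher. For Alad, Dctpp1, Cenpx, Eif5a, Smim8, Ndufa13 and Ndufb7 the CD8 interval included 0, and Dctpp1 stood at -0.02 there. All 24 genes kept their direction in NK cells without the top cell of each library, but Il1b then rested on 25 and 1 UMIs.

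Transcripts of other cells were low but uneven. A list of 10 macrophage genes summed to 385 CPM in NK cells on the serine/glycine-free diet and 212 CPM on the control diet, against 36774 and 35913 CPM in macrophages, and 128 and 91 of the UMIs came from 3 cells. B and plasma cell genes summed to 109 and 29.1 CPM, and 11 tumour genes to 146 and 77.7 CPM, against 1458 and 2023 CPM in tumour cells. Of the 5 endothelial genes Cdh5, Kdr and Gpihbp1 were at 0 in both libraries. A doublet caller (Scrublet) marked 2 serine/glycine-free and 3 control NK cells, and without called doublets in any class the 3 share ratios were 0.943, 0.788 and 0.656 for kept cells, leukocytes and NK plus CD8 T cells.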

How the data were processed

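The deposited files hold raw UMI counts for each gene in each barcode, which the authors obtained by aligning droplet libraries to the mouse genome mm10 (per the submitters' processing notes). The file headers name Cell Ranger 7.0.1 and the submitters' processing notes Cell Ranger 2.2.2, and the labels' protocol names 3′ version 2 chemistry. The sources used here do not give the annotation release or say whether intronic reads were counted. Cells were filtered and selected by the rule at the head of the report. Leukocytes held at least 3 UMIs of Ptprc, Laptm5, Coro1a, Cd52 and Tyrobp together, and macrophages at least 10 C1q UMIs with Cd3e and the NK rule genes at 0. Tumour cells held at least 10 UMIs of Hmga2 and Rhox5 with Ptprc at 0 and at most 1 C1q UMI. Macrophages and leukocytes obeyed the tumour limit of 3. Where an alternative changed the tumour limit, it changed for the leukocyte and CD8 T gates too. Doublets were left in, and cells called by Scrublet were removed in an alternative. It called 12.0% of kept serine/glycine-free and 4.82% of kept control cells.

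For each cell class of a library, counts were added up over its cells and scaled by their total (CPM). Shares have exact Clopper-Pearson intervals and ratios of counts conditional binomial intervals, all 95% and for counting error only. A ratio of shares has an interval on the log scale. Genes needed 50 pooled UMIs. The NK members and the 29 gene lists (424 genes, 423 in the files; Aldoa, whose symbol stands for 2 gene IDs, was left out of list counts) were chosen with earlier results of these data known. Genes named are list members with at least 50 pooled UMIs in NK cells and the 12 highest and 12 lowest genes by the interval bound nearest to no difference, without Gm, Rik, mitochondrial, ribosomal-protein and rule genes and genes higher in tumour cells than in NK cells. Myo10, Fcrl6, Ctsg, Pdcd1, Lag3, Cxcr6, Itgam and Krt20 were named after their values were seen. The ratio of counts and its interval were tested on simulated counts. These were drawn for each gene over all NK cells at once, so the test did not cover UMIs gathered in single cells. Promoters came from RefSeq (GRCm38.p6) and transcripts from GENCODE, and deposited counts were not reassigned. Alternatives changed the tumour limit, the rule minimum, filters, scaling, weighting, doublets, shared barcodes, the pseudocount and depth. Python 3.11.15, numpy 2.4.6, scipy 1.17.1, pandas 2.3.3, scanpy 1.11.5, anndata 0.12.19, matplotlib 3.10.9 and Biopython 1.88 were used.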

Additional observations from a re-analysis of the deposited data

How the results depend on the processing

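No paired analysis was possible because each diet has 1 library. The 3 NK share ratios moved by less than their intervals under all 11 alternatives, with ranges of 0.740 to 1.003 for kept cells, 0.652 to 0.884 for leukocytes and 0.560 to 0.734 for NK plus CD8 T cells. Of the values below the cause was not tested, beyond the change in cells, genes or depth that each alternative makes.

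With no tumour limit the ratio of cycling shares was 0.800, and list medians of log2 ratios were -0.11 for activating receptors, -0.15 for granule genes, -0.16 for transcription factors, 0.044 for maturation, 0.0021 for type 1 innate lymphoid genes, 0.29 for cell division, 0.31 for glycolysis and -0.11 for cytokine receptors. In the same setting Klrk1 stood at -0.11, Klrc1 at -0.13, Spp1 at 0.18, Il18rap at -0.091, Ifngr1 at -0.069, Inpp4b at -0.034, Phgdh at 0.67, Gapdh at 0.39, Ldha at 0.37, Ndufv1 at 0.039, Atp5b at 0.028 and Lyz2 at -0.43. At a limit of 0 Cebpb stood at -0.026. Gzmg stood at -0.10 and -0.16 with a minimum of 1 and 3 rule UMIs, and Zeb2 at -0.17 when Cd3d and Cd3g were barred too.

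Thinned to 1000 UMIs per cell, the ratio of shares was 0.881 for cycling, 1.396 for Itga1 and 1.85 for Klrg1, the medians were 0.50 for transcription factors and -0.43 for cell division, 867 genes were higher and 580 lower, and Sh2d1b1 stood at -0.12, Gzmg at -0.79 and Jund at -0.013. With each cell weighing the same, the granule median was -0.17, 308 genes were lower, and Gzmf stood at -0.21, Gzmg at -0.90, Zeb2 at -0.020 and Jund at -0.049. Without its top cells Ccl3 stood at -0.46. Median-ratio scaling gave 307 lower genes. A minimum of 20 pooled UMIs gave 1039 higher and 504 lower genes, and of 200 gave 51 and 24. Of 256 named genes, 53 took the other direction after thinning, beside 79 with no tumour limit. Depth and 1 library per diet limit every comparison of diets.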

Other observations

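Granzyme inhibitors protect a killer cell from its own granules. Of the 4 measured 1 was higher on the serine/glycine-free diet and 3 lower, with a median log2 ratio of -0.10. With the granzyme C to G cut, Serpinb9b and Serpinb6a, serpins of the granzyme inhibitor family, were at least 1.5-fold higher in both libraries. Interferon-response and MHC class I genes were higher on the serine/glycine-free diet for 13 of 16 genes (81.3%, beside 58.5% of all genes), 3 of them by at least 1.5-fold and none lower by as much (beside 10.4% of all genes higher), with a median of 0.21 in NK cells and -0.16 in CD8 T cells. Gbp7, a guanylate-binding protein, stood at 170 CPM on the serine/glycine-free diet and 111 CPM on the control diet, a log2 ratio of 0.62. B2m (beta-2 microglobulin) stood at -0.10. Within granzyme C to G high cells 8 of the 16 were higher, and within the other cells 14. Of 7 checkpoint receptors 5 were higher on the serine/glycine-free diet (71.4%), 3 by at least 1.5-fold and none lower by as much, with a median of 0.34. Ctla4, an inhibitory receptor for B7 ligands, stood at 174 CPM on the serine/glycine-free diet and 112 CPM on the control diet, and Entpd1 (CD39), which breaks down extracellular ATP, at 104 and 59.7 CPM. Transcription factors had a median of 0.03 over 21 genes, which took the other direction (-0.041) without mitochondrial and ribosomal-protein genes in the totals, and Irf8, a factor of myeloid and NK cells, stood at 1002 and 1191 CPM. These values have no replicate behind them.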
